A study of Homo sapiens with 8 samples.

Results

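Genes of the transcription machinery and genes named for zinc fingers carried candidate RNA acetylation sites in the established human embryonic stem cell line H1. A gene was a member if it had a site in either of 2 site lists and its symbol began with ZNF, ZBTB, ZFP and a digit, POLR2, POLR3, GTF2, GTF3, MED and a digit, or was a TAF symbol (a number, then at most a B, C or L), or if it was BTF3 or EDF1. This gave 42 of the 1506 listed genes: 9 general transcription factors, 5 subunits of RNA polymerases II and III, 4 coactivators (Mediator subunits and EDF1) and 24 genes with a zinc finger name. The first list came from cells that had been transduced for 48 h with a lentivirus bearing an shRNA against NAT10 and GFP, enriched for GFP and expanded in TeSR-E8 medium under 0.5 µg/ml puromycin (NAT10 KD). The other came from wild-type cells (WT) of the same line, for which the labels give Matrigel and PGM1 medium and no control shRNA, so transduction, selection and medium cannot be told apart from the knockdown. Each genotype had 2 libraries of RNA treated with sodium cyanoborohydride and 2 of untreated input, 8 in all, but each deposited list gives a genotype as a whole. There is therefore no replicate value and the depth behind a site is unknown, so the 95% intervals given here are exact binomial (Clopper-Pearson) intervals that cover counting error only, and no test was run.

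N4-acetylcytidine is a modified cytidine written into RNA by the acetyltransferase NAT10. Chemical ac4C sequencing reduces the acetylated base with cyanoborohydride, after which part of the cDNA carries a T in place of C. RNA polymerase II makes mRNA and RNA polymerase III makes tRNA, 5S rRNA and other short RNAs. Each polymerase is placed on its promoters by general transcription factors, and Mediator connects RNA polymerase II with regulators bound elsewhere. Zinc finger proteins form the largest class of human DNA-binding regulators, many of them encoded in clusters on chromosome 19 and many carrying a KRAB repressor domain.

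NAT10 had 0 listed sites in NAT10 KD and 0 in WT, and its level was not analysed here. Of 15 embryonic stem cell markers (14 of them annotated by the symbol used), 8 had a site in NAT10 KD and 6 in WT. POU5F1 was among them in both, whereas NANOG had 0 sites in both, and so did ZFP42, a zinc finger marker of pluripotent cells that would have met the rule. Of 16 genes taken as markers of other cell types, 2 were listed in NAT10 KD (THY1 and TUBB3) and 3 in WT (KRT8, THY1 and VIM). Whether H1 cells themselves express these genes was not analysed, so their sites do not show another cell type. Either list held 71.4% of the 14 annotated stem cell markers (41.9 to 91.6) and 25% of the other markers (7.27 to 52.4). Both shares stood above the 7.14% of all protein-coding genes. A listed site does not measure expression, so these counts check the cell type only in part.

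The RefSeq table of gene start windows (250 bases before to 50 after each start, GRCh38.p14, the assembly of the files' build hg38) covered 94 of the 1851 distinct sites, and all 94 had C as the reference base on the strand of the site. A method that reads T in place of C implies this, so it checks only that positions and strands were read correctly. A G preceded the C at 48 of the 92 sites with both neighbours in the window (52.2%, 41.5 to 62.7), against 30.2% of all C in these windows. A G followed it at 47 of 92 (51.1%, 40.4 to 61.7), against 19.6% of all C. The CCG triplet, in which NAT10 sites are best known, was found at 9 of 92 sites (9.78%, 4.57 to 17.8), against 7.07% of all C, and GCG at 26 of 92 (28.3%, 19.4 to 38.6), against 7.64%. These shares describe sites close to gene starts, and the windows are genomic DNA and not transcripts.

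Members accounted for 2 of these 94 sites, and they are shown because their triplets differ. Each is printed 5′ to 3′ on the minus strand, with the site as the middle base of the capitals. The GTF2A2 site is read from chr15:59657466-59657494 and has TCG, and the POLR2I site is read from chr19:36114980-36115008 and has CCG.
GTF2A2: gctggagaggtggTCGgagaagtaggaac
POLR2I: gagagagccgagcCCGaggcggcggggag

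Members held 20 of the 950 sites in NAT10 KD, in 20 genes, and 29 of the 1005 sites in WT, in 28 genes. That is 2.11% of the NAT10 KD list (1.29 to 3.23) and 2.89% of the WT list (1.94 to 4.12). The ratio of NAT10 KD to WT member sites was 0.690 (0.370 to 1.26), beside 0.945 over all sites (0.864 to 1.03), and both intervals include 1. Without genes that have a pseudogene copy the ratio was 0.458 (0.203 to 0.972), from 11 NAT10 KD and 24 WT sites. All sites with a gene position then numbered 662 in NAT10 KD and 702 in WT. The interval of 0.458 leaves out 1 but covers counting error only, and this was 1 of several filters. With only sites that scored 2.30 or more (1 above the lowest score) the member ratio was 1, with 8 sites in each list. By subset, NAT10 KD and WT had 5 and 6 sites in general transcription factors, 2 and 3 in polymerase subunits, 2 and 2 in coactivators, and 11 and 18 in zinc finger genes. The ratio for zinc finger genes was 0.611 (0.261 to 1.37).

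The share of members listed in both genotypes was near that of all listed genes. Of the 42 genes, 14 were in NAT10 KD only, 22 in WT only and 6 in both, where 41.4%, 43.9% and 14.7% of all listed genes stood. The 6 were 14.3% of the members (5.43 to 28.5), making up 30.0% of the NAT10 KD members and 21.4% of the WT members, against 26.3% and 25.1% over all genes. They were the general factor genes GTF3C3 and GTF3C6 and the zinc finger genes ZNF146, ZNF589, ZNF593 and ZNF761. At identical position and strand, 3 of 46 distinct member sites were in both lists (6.52%, 1.37 to 17.9), near the background of 5.62%. Because the lists appear to end at a score threshold, absence from a list does not show that a site was unacetylated.

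The authors gave each site a score, with no formula in the sources used here, which only ranks sites within its own list. The lowest score of a list was 1.30 in both genotypes. Member sites had a median score of 1.76 in NAT10 KD and 1.79 in WT, beside 1.72 and 1.70 over all sites. A score of at least 2 was reached by 9 of 20 member sites in NAT10 KD (45.0%) and 12 of 29 in WT (41.4%), where 31.9% and 33.7% of all sites reached it. The median was 3.05 in NAT10 KD and 2.02 in WT for general transcription factors, 1.81 in NAT10 KD and 2.44 in WT for polymerase subunits, and 1.58 in NAT10 KD and 1.71 in WT for zinc finger genes. The coactivators, with 2 sites per list, had medians of 1.97 in NAT10 KD and 12.3 in WT. Zinc finger genes had the lowest median of the 4 subsets in both lists.

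**Figure D1:**
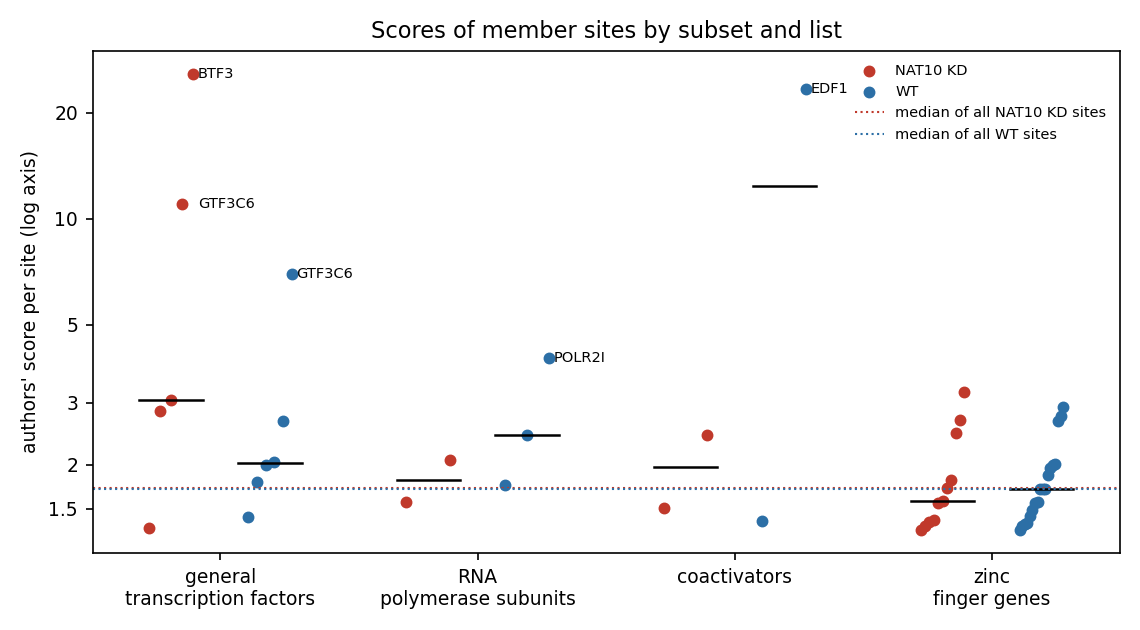
Authors' score per member site (log axis) by subset, with NAT10 KD left of WT, 1 point per site, a black line at each median and dotted lines at the medians of all sites (1.72 in NAT10 KD and 1.70 in WT). BTF3, GTF3C6 and EDF1 stand above the rest, and no zinc finger site exceeds 3.21 in NAT10 KD or 2.91 in WT.

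Among the factors of RNA polymerase III, TFIIIC carried sites in 2 of its subunits, and it is the complex that recognises promoter elements inside tRNA genes. GTF3C6, a small TFIIIC subunit, had a site at position 110958805 of chromosome 6 with a score of 11.0 in NAT10 KD, and a site at position 110958814 with 6.97 in WT. The positions lie 9 bp apart on the plus strand, 99 and 108 bp from the 5′ end of the gene. They ranked 20 of 950 in NAT10 KD and 36 of 1005 in WT. GTF3C3, another TFIIIC subunit, had the same site in both lists, at position 196799545 of chromosome 2 (minus strand), with scores of 2.85 in NAT10 KD and 2.00 in WT. It lay 138 bp from the 5′ end of a gene that spans 36649 bp. GTF3A, the zinc finger protein TFIIIA that binds 5S rRNA genes, was in WT only (score 2.67, chromosome 13, position 27427172). GTF3C6 has 3 pseudogenes named after it and GTF3A has 6, whereas GTF3C3 has 0, and alignment can assign reads from a pseudogene to its parent.

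The other 6 genes of the general transcription factor subset, which was formed by symbol and not by function, were each in 1 list only. So were 41.4% (NAT10 KD) and 43.9% (WT) of all listed genes. BTF3, named as a basic transcription factor and known as the beta subunit of the nascent polypeptide-associated complex, had the highest member score of the NAT10 KD list, 25.8, and ranked 8 there (chromosome 5, position 73498552, plus strand). Its site lay 110 bp from the 5′ end, and 16 pseudogenes bear its name. GTF2F1, the large subunit of TFIIF, scored 3.05 in NAT10 KD at position 6381188 of chromosome 19, 88.1% of the way along the gene. GTF2I, which encodes TFII-I, a regulator outside the basal machinery, scored 1.32 in NAT10 KD (chromosome 7, position 74716941), where GTF2I-AS1 overlaps and 20 pseudogenes are named after it. GTF2A2, the small subunit of TFIIA, scored 2.04 in WT at position 59657480 of chromosome 15, 35 bp from the 5′ end. The TFIID subunits TAF6 and TAF13 were also in WT only. TAF6, which has a histone fold, scored 1.79 (chromosome 7, position 100112863), and TAF13 scored 1.42 at position 109063236 of chromosome 1, 904 bp beyond the 3′ end of the RefSeq span. TBP, the TATA-binding protein, had 0 sites in both lists.

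Of the 5 polymerase subunits, 0 were listed in both genotypes (0 to 52.2%), an interval that includes the 14.7% of all genes. POLR2C, a core subunit of RNA polymerase II, scored 2.06 in NAT10 KD at position 57471083 of chromosome 16. POLR3D, a subunit of RNA polymerase III, scored 1.57 in NAT10 KD, 60.2% of the way along its gene on chromosome 8. In WT, the highest polymerase score was 4.02, for POLR2I, a small zinc-binding subunit of RNA polymerase II (chromosome 19, position 36114994). This is the CCG site printed above. It lies 119 bp upstream of the RefSeq span of POLR2I and inside TBCB, which is transcribed from the other strand, so its gene is the one the authors' list names. POLR2D, which forms part of the polymerase stalk, scored 1.76 in WT, 87 bp from the 5′ end of its gene (chromosome 2, position 127858068). POLR3E, also of RNA polymerase III, scored 2.44 in WT, 96.5% of the way along its gene (chromosome 16, position 22333785).

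Among the coactivators, EDF1 had the highest member score of the WT list, 23.3, and ranked 13 there (chromosome 9, position 136863335, minus strand). EDF1 is a transcriptional coactivator that also binds collided ribosomes. Its site lay 71.0% of the way along the gene, and it had no site in NAT10 KD. The Mediator subunits were MED6 (2.43, chromosome 14, position 70584895) and MED10 (1.51, chromosome 5, position 6372530) in NAT10 KD and MED9 (1.38, chromosome 17, position 17491819) in WT. MED6 belongs to the head module, and MED9 and MED10 to the middle module. All 3 sites lay between 90.2% and 91.4% of the gene span, counted from its 5′ end.

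Zinc finger genes were the largest subset, with 20 ZNF, 3 ZFP and 1 ZBTB symbols, of which 21 are protein-coding. The others are the long noncoding RNA gene ZNF496-DT and the pseudogenes ZNF321P and ZNF731P, members by name only. A score of at least 2 was reached by 3 of their 11 sites in NAT10 KD (27.3%) and 5 of their 18 sites in WT (27.8%), near the 31.9% and 33.7% of all sites. ZNF146, which encodes a protein made almost only of zinc fingers, had the highest score of the subset in both lists, at position 36237524 of chromosome 19 (3.21 in NAT10 KD and 2.91 in WT). A further ZNF146 site at position 36236792 was in WT only (2.01), and both sites lay over ZNF565 too. ZNF761 was also listed at the same position in both, at 1.58 in NAT10 KD and 1.71 in WT (chromosome 19, position 53442322), inside a readthrough gene and the pseudogene TPM3P9. ZNF589, a KRAB zinc finger gene on chromosome 3, had sites 1527 bp apart, at position 48267982 in NAT10 KD (1.81) and 48269509 in WT (1.71). ZNF593, whose product acts in assembly of the large ribosomal subunit, had sites 567 bp apart on chromosome 1, at position 26170030 in NAT10 KD (1.72) and 26170597 in WT (1.43). Of the 6 members in both lists, only GTF3C3, ZNF146 and ZNF761 had an identical position.

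The NAT10 KD list alone held ZNF511 (2.69, chromosome 10, position 133311734), ZNF321P (2.46, chromosome 19, position 52929360), ZNF263 (1.56, chromosome 16, position 3284176) and ZNF731P (1.39, chromosome 1, position 247190943). ZNF263 encodes a protein with SCAN and KRAB domains. The remaining 3 zinc finger sites in NAT10 KD scored between 1.30 and 1.37. The WT list alone held ZNF775 (2.75, chromosome 7, position 150398597), ZNF830 (2.67, chromosome 17, position 34962512), ZNF496-DT (2.00, chromosome 1, position 247334073) and ZNF768 (1.96, chromosome 16, position 30526394). ZNF581 (1.87, chromosome 19, position 55645136) and ZNF330 (1.71, chromosome 4, position 141222432) followed. The remaining 7 zinc finger genes of WT, among them all 3 ZFP genes and ZBTB11, scored between 1.31 and 1.57. Just inside the end of the lists stood ZNF33B at 1.30 in NAT10 KD, which ranked 947, and ZBTB11 at 1.31 in WT, which ranked 998.

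Chromosome 19 held 6 of the 24 listed zinc finger genes. Among protein-coding ones it held 5 of 21 (23.8%, 8.22 to 47.2), against 258 of the 581 annotated zinc finger genes (44.4%). The chromosome holds 7.23% of all protein-coding genes, and the interval of the listed zinc finger genes includes 44.4%. Overlap with other genes, counted on either strand, was most frequent in this subset. Of its 27 distinct sites, 9 lay inside more than 1 gene, against 1 of the 19 other member sites and 217 of all 1851. The overlapping genes include some named as antisense or opposite strand (ZNF133-AS1 and ZNF593OS) and readthrough genes (ZNF816-ZNF321P and ZNF765-ZNF761).

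The position of a site along its gene was independent of the rule. The median member site lay 63.3% of the way along the gene in NAT10 KD (20 sites) and 71.0% in WT (27 sites), beside 62.6% and 56.9% over all sites. Without sites inside more than 1 gene, the median of the members was 64.5% in NAT10 KD and 43.5% in WT. This filter was not applied to all sites. General transcription factor sites had medians of 1.52% in NAT10 KD and 1.18% in WT, over 5 sites each, without the WT site of TAF13, which lies beyond the span. They were spread: 5 of the 10 distinct sites lay within 200 bp of the 5′ end, both GTF3C6 sites (9 bp apart) among them. Those of GTF3A, GTF2I, TAF6 and GTF2F1 lay at 22.8%, 57.5%, 71.2% and 88.1%. The zinc finger sites had medians of 66.4% in NAT10 KD and 71.6% in WT.

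**Figure D2:**
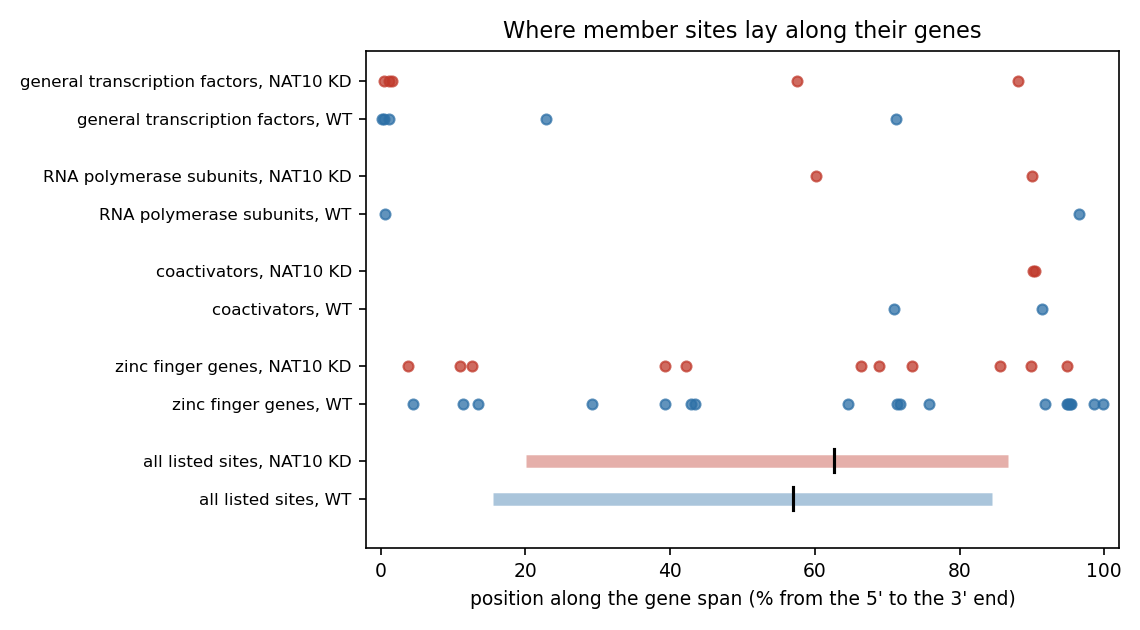
Position of each member site along its gene span, in percent from the 5′ to the 3′ end, by subset, with NAT10 KD above WT. Bars at the bottom give the quartiles of all listed sites with a black line at the median (62.6% in NAT10 KD and 56.9% in WT). In each list, 3 of the 5 general factor sites lie in the first 2% of the gene.

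Counted in bases, 7 of the 19 distinct sites of general factors, polymerase subunits and coactivators lay within 200 bp of the 5′ end of the gene span (36.8%, 16.3 to 61.6), where 12.1% of all sites did, a distance chosen after the values were seen. They fell in 6 genes: BTF3, GTF2A2, GTF3C3, GTF3C6 (1 site per list, 9 bp apart), POLR2D and POLR2I (a site 119 bp upstream of the span, outside the gene). Only GTF3C3 and POLR2I of these have no pseudogene copy, and over genes without one it was 2 of 8 sites (25%, 3.19 to 65.1), an interval that includes the 11.1% of all sites in genes without a copy. Within 100 bp it was 3 of 19 sites (15.8%, 3.38 to 39.6), against 5.92% of all sites. By list, 3 of 9 sites in NAT10 KD and 5 of 11 in WT lay within 200 bp. Zinc finger genes had 2 of 27 distinct sites there (7.41%, 0.910 to 24.3), in ZNF593 and ZNF731P. The gene span was used because exons and transcript regions were not used here, and none of these sites was placed in a UTR or a coding exon.

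The share of each family with a listed site was set against all annotated protein-coding genes, of which 7.14% had a site in either list. Of 103 genes with a machinery symbol, 16 were listed (15.5%, 9.15 to 24.0), and of 581 zinc finger genes 21 were (3.61%, 2.25 to 5.47). Each list was also counted by itself, with genes shared by both lists included. The NAT10 KD list had 8 machinery genes (7.77%, 3.41 to 14.7) and 9 zinc finger genes (1.55%, 0.711 to 2.92). It had 3.98% of all protein-coding genes, which the machinery interval includes. The WT list had 10 machinery genes (9.71%, 4.75 to 17.1) and 16 zinc finger genes (2.75%, 1.58 to 4.43), against 4.22%, which the zinc finger interval includes. By family, 3 of 7 GTF3 genes, 3 of 19 GTF2 genes, 2 of 22 TAF genes, 3 of 15 POLR2 genes, 2 of 10 POLR3 genes and 3 of 30 MED genes were listed. Only the GTF3 interval (9.90 to 81.6%) among these 6 lay wholly above 7.14%, and the ZNF interval (17 of 518, 1.92 to 5.20%) lay wholly below it. Expression was not analysed here, so its part in these shares was not tested.

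**Figure D3:**
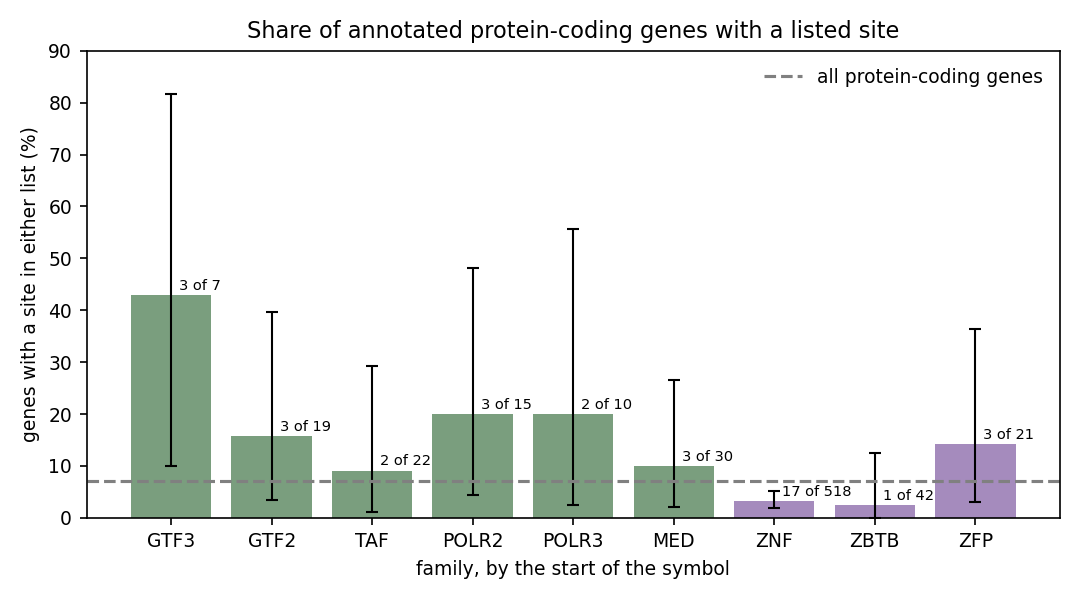
Share of annotated protein-coding genes with a site in either list, by family, in percent. Bars are shares with exact 95% intervals and counts, and the dashed line is the share over all protein-coding genes (7.14%). GTF3 stands highest at 3 of 7 genes, and ZNF lies under the line at 17 of 518.

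Other transcription genes outside the rule were followed through lists. The shares below stand beside 7.14% of all protein-coding genes in either list (3.98% in NAT10 KD and 4.22% in WT). Of 12 genes for RNA polymerase I and its factors, 25% were in either list (5.49 to 57.2), 1 in NAT10 KD and 3 in WT. TAF1D, of the polymerase I selectivity factor, had 2 sites on chromosome 11 in both lists, at position 93738252 (16.3 in NAT10 KD and 7.40 in WT) and at position 93732275 (1.40 in NAT10 KD and 1.46 in WT), and UBTF and POLR1H (1.54) were in WT only. Of 33 annotated genes of promoter-proximal pausing and elongation, 24.2% were in either list (11.1 to 42.3). Of these, 2 were listed in NAT10 KD and 7 in WT, with 1 in both. That gene was SUPT16H, a subunit of the histone chaperone FACT, with 2 sites in NAT10 KD (3.64 and 2.30) and 1 elsewhere in WT (1.54). SUPT6H (1.35) was in NAT10 KD only, and TCEA2 (2.72), NELFE (1.90), INTS11 (1.71), SUPT4H1 (1.66), NELFB (1.49) and ELOA (1.44) were in WT only. Of 29 annotated other factors of RNA polymerases II and III, 13.8% were in either list (3.89 to 31.7), 3 in NAT10 KD and 3 in WT. CCAR1 and the TFIIH helicase gene ERCC3 were in both lists. The CCAR1 sites lay within 10 bp of each other on chromosome 10, at position 68765927 in NAT10 KD (1.47) and 68765921 in WT (2.49). The ERCC3 sites lay far apart on chromosome 2, at position 127259428 in NAT10 KD (1.44) and 127290482 in WT (1.38). SNAPC1 (2.26) was in NAT10 KD only and CDK8 (1.84) in WT only. Of 116 other zinc finger factor genes, such as the KLF, SALL and ZSCAN families, 2 were listed in NAT10 KD (SALL4 at 1.72 and ZSCAN18 at 1.81) and 3 in WT (TRIM28, the corepressor of KRAB proteins, at 3.54, SALL2 at 1.45 and ZSCAN2 at 1.37). These 5 genes were 4.31% of that list (1.41 to 9.77).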

How the data were processed

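Chemical ac4C sequencing was done on 8 libraries (treated and input RNA of NAT10 KD and WT cells, 2 replicates each). Per the submitters' processing notes, the tools were STAR 2.7.8a, fastp 0.21.1 and SAMtools 1.12, on hg38. For site calling, the use of the input and of molecular identifiers, and pooling, nothing is stated in these sources. The authors deposited 1 list per genotype with a score per site, whose formula the file headers do not give. Depth is unknown. The lowest scores lie just above 1.30103, the −log10 of 0.05.

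Positions are 1-based. All 42 members matched the RefSeq table of GRCh38.p14 by symbol. Gene strand, known for 42 of 49 member entries, matched the site's. A copy means a pseudogene, or a gene after which a pseudogene is named. Members, subsets and gene lists were chosen with earlier results of these data known. Named were all machinery members, zinc finger genes in both lists or with several sites, the 8 highest zinc finger scores per list, and listed genes of the other lists. Functions were tested on simulated data. Python 3.11.15, pandas 2.3.3, NumPy 2.4.6, SciPy 1.17.1 and matplotlib 3.10.9 were used.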

Additional observations from a re-analysis of the deposited data

How the results depend on the processing

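Of 45 alternatives to the reported values, 41 stayed within the 95% interval of the main value. This is a weak check, since many intervals are wide and most alternatives use part of the same sites. A WT median position of 43.5%, for example, counted as within the interval of 71.0% (22.8 to 91.8). At a score of at least 2.30 (1 above the lowest listed), the members' share of the NAT10 KD list was 3.70%. Counting the NAT10 KD list by itself, with genes shared with WT included, the share of annotated genes listed was 1.55% for zinc finger genes. It was 7.77% for the machinery, against 3.98% of all protein-coding genes, since fewer sites enter. Within 100 bp in place of 200 bp of the 5′ end, the share of machinery and coactivator sites was 15.8%. The NAT10 KD to WT ratio of member sites ranged from 0.458 without genes with a pseudogene copy to 1 at the score minimum. The cause was not tested. Leaving out BTF3 and EDF1, a score minimum of 2 and the distances from the 5′ end were added after the data were seen. No paired analysis was possible because the lists hold no values per replicate, so replicates could not be left out in turn either. Unknown depth limits every comparison of the lists.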
